A study of Mus musculus with 8 samples.

Results

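The TFII-I family of the mouse consists of Gtf2i, Gtf2ird1 and Gtf2ird2, and 6 of the array's 56605 probes were assigned to these 3 genes. The members were all probes whose systematic name was one of the symbols or a transcript accession that RefSeq gives to one of the genes. RefSeq named 32994 probes, so a family probe listed under another kind of accession could have been missed. Of the 6 probes, 3 were for Gtf2i, 2 for Gtf2ird1 and 1 for Gtf2ird2. Every one was printed as 1 spot per array. All 6 were well above background on all 8 arrays, carried no outlier flag and were not saturated, so all of them entered the tests.

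RNA came from TEC100.4, an immortalized mouse line whose labelled origin is the cortical epithelium of the thymus. The cells carried a doxycycline-inducible mutant of TFII-I, in its β isoform in one line and its δ isoform in the other, and each line was kept for 24 h with or without doxycycline. This gave 4 groups of 2 one-colour arrays: the β line without doxycycline, the β line with doxycycline, the δ line without doxycycline and the δ line with doxycycline. The titles name the mutant line for all 8 samples, while the genotype entry of the 4 untreated samples names expression of the wild type protein, and the groups here follow the titles. All groups therefore carried a construct, and a line without one that received doxycycline was not analysed here. The species and sequence of the construct, the number of clones behind each line and whether replicate arrays stem from separate cultures are not given in the sources used here. P-values consequently reflect the spread among these arrays alone, and that spread may be technical.

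TFII-I, the product of Gtf2i, is a transcription factor with several helix-loop-helix-like I-repeats. It binds initiator elements and E-boxes in promoters, and it moves between cytoplasm and nucleus in response to growth factor and antigen receptor signals. Its β and δ isoforms are splice forms, and a recurrent point mutation of human GTF2I is known from epithelial tumours of the thymus. GTF2IRD1 shares the I-repeats, prefers the sequence GGATTA and is known to repress its own promoter, while GTF2IRD2 carries in addition a domain derived from a transposon. The 3 genes are neighbours, and the human counterparts of Gtf2i and Gtf2ird1 lie in the region commonly deleted in Williams-Beuren syndrome.

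In the RefSeq annotation of GRCm38.p6 the genes lie on chromosome 5, with Gtf2ird2 at 134182557 to 134218146, Gtf2i at 134237832 to 134317678 and Gtf2ird1 at 134357661 to 134456867. Of these, Gtf2i has 43 annotated transcripts, Gtf2ird1 has 45 and Gtf2ird2 has 7. Probes A_55_P2073467 and A_55_P2040907 of Gtf2i are annotated to the same RefSeq transcript, and probe A_52_P442585 of Gtf2i to another. Both Gtf2ird1 probes, A_55_P1986486 and A_55_P2103880, are annotated to the same transcript. The probes' sequences are not given in the sources used here. Which exons they cover, whether they also bind a relative's RNA and whether they match the construct were therefore not tested.

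The promoters of Gtf2ird1 and Gtf2ird2 are shown because they held matches to motifs of a kind that the family's own proteins bind. Each sequence is the 250 bases before the 1 start site that the RefSeq promoter table (GRCm38.p6) lists for the gene, written in the direction of the gene. The genes have further transcripts, and both windows lie wholly or in part inside the gene bounds given above. Capitals mark GGATTA on either strand (TAATCC on the other) and the E-box CACGTG, which reads the same on both strands and does not overlap the first motif. Both motifs were picked after the promoters had been seen.

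Gtf2ird1, chr5:134456717-134456966, minus strand: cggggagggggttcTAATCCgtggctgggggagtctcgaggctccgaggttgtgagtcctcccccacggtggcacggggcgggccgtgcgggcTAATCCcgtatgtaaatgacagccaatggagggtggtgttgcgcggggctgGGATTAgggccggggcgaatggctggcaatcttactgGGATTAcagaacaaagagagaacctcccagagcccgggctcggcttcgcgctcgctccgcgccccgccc
Gtf2ird2, chr5:134183788-134184037, plus strand: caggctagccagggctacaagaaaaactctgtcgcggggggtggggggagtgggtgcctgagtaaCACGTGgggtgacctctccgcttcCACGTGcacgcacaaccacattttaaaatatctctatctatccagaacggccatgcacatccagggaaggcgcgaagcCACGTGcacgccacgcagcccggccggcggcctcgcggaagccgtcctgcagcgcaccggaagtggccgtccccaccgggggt

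The Gtf2ird1 promoter held 4 matches to GGATTA, which begin at positions -236, -157, -106 and -69 from the start site. Of 32851 mouse promoter windows of the same length, 6.25% held at least 1 match, and 8 promoters (0.0244%) held 3 or more. The Gtf2ird2 promoter held 3 matches to CACGTG, beginning at -185, -161 and -83. At least 1 such match stood in 6.02% of the promoters, and 3 or more in 20 promoters (0.0609%). The Gtf2i window held neither motif. These are matches of letters in a window and not measured binding.

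Levels are given as the log2 of the processed spot intensity minus the 75th percentile of the same array, and only changes of 1 probe between arrays are read. The arrays had 42247 to 47853 spots well above background, namely 46102 to 47853 with doxycycline and 42247 to 43440 without. All arrays lay on 1 slide, and the first number of the array code was 1 for every treated and 2 for every untreated sample, so whatever that number marks and treatment cannot be told apart. The second number was 1 or 2 for every β and 3 or 4 for every δ array. Whatever it marks therefore cannot be told apart from line. Correlations between the 2 arrays of a group ran from 0.966 to 0.996 across probes. Replicate 1 of the untreated δ line carried most of the regions where spots departed locally from the other arrays, and none of the 6 family probes lay in such a region, called a region of local departure from here on. With 2 arrays a group, precision is limited by their number. Tests were limma fits over 44321 probes with Benjamini-Hochberg adjustment and a threshold of 0.05, and errors are SD with n = 2 for group means and SE for differences.

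The first question was whether doxycycline, which should switch on the mutant, was seen by probes of the gene itself. At probe A_55_P2073467 of Gtf2i the β line read 4.39 and 4.63 without doxycycline and 4.58 and 4.65 with it. The δ line read 5.28 and 5.07 without doxycycline and 5.28 and 5.26 with it. In both lines the treated and untreated arrays overlapped. The difference was 0.11 ± 0.13 (log2, SE) in the β line, with a 95% interval from -0.21 to 0.42 and an adjusted p of 0.769 by limma. The δ line gave 0.09 ± 0.13, with an interval from -0.22 to 0.41 and an adjusted p of 0.763. The upper ends of these intervals are 1.34-fold and 1.33-fold, so larger rises at this probe lay outside both.

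Probe A_52_P442585, annotated to another Gtf2i transcript, read -0.22 and -0.32 in the untreated β line and -0.11 and -0.15 in the treated β line. The δ line gave 0.39 and 0.27 without doxycycline and 0.42 and 0.35 with it. The 2 β groups did not overlap, while the δ groups did. The doxycycline difference was 0.14 ± 0.10 in the β line (adjusted p = 0.573 by limma), while the δ line gave 0.05 ± 0.10 (adjusted p = 0.834). Here the intervals end at 1.32-fold and 1.24-fold.

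The remaining Gtf2i probe, A_55_P2040907, gave other values. In the untreated β line it read -2.13 and -2.56, and in the treated β line -1.05 and -1.02. Both treated β arrays were thus above every other array for this probe, since the δ line read -1.68 and -1.93 without doxycycline and -1.81 and -1.53 with it. The processed intensities behind these levels were 322 and 260 in the untreated β line and 492 and 597 in the treated β line. Those in the δ line lay between 360.4 and 452, and the local background around the spot was 25 to 32 on the 8 arrays. The 75th percentile itself was lower on the treated β arrays (1402 and 1684) than on the untreated β arrays (1958 and 2170), and the level includes that difference.

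For A_55_P2040907 the doxycycline difference in the β line was 1.31 ± 0.19, or 2.48-fold with a 95% interval from 1.82-fold to 3.39-fold. Its unadjusted p was 0.000353 and its adjusted p 0.0931 by limma, so it did not pass. Only 0.702% of the probes tested had a larger difference in either direction. Across 19 alternative settings the value lay between 1.1 and 1.52, and the adjusted p between 0.0527 and 0.372. The same difference in the δ line was 0.14 ± 0.19 (adjusted p = 0.756). The difference between the 2 effects was -1.17 ± 0.26 (unadjusted p = 0.00392, adjusted p = 0.746 by limma) and did not pass either. Averaged over both lines, the effect was 0.72 ± 0.13 with an adjusted p of 0.0711, and it passed in 6 of 18 alternatives. One of these left out replicate 2 of the untreated δ line (0.66, adjusted p = 0.0459), where 3957 probes passed in place of 330.

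Some other values were higher on the treated β arrays, though not all marker sums were. The summed level of 8 thymocyte markers was 22.3 to 33.5 there and 17.5 to 21.5 in the other 3 groups, and 5 of the 8 were well above background on all arrays, with Ptprc, Rag1 and Rag2 not. For 6 macrophage and dendritic cell markers, of which 4 were well above background throughout, the sum was 21.5 to 24.1 there and 15.6 to 20.5 elsewhere. The sum of 8 fibroblast markers, all well above background throughout, was 564.6 to 640.3 there and 519 to 551.6 elsewhere. These sums are of linear intensities and weigh the brightest probes most. For thymocytes that was Cd4 (mean log2 level 4.10, next Cd3e at 1.62), and for macrophages and dendritic cells Itgam (3.41, next Csf1r at 2.24). For fibroblasts Col1a2 (7.39) and Col1a1 (7.37) were the brightest. The part of these markers in the reading of A_55_P2040907 was not tested.

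Taken by probe count, 0 of the 6 family probes passed for doxycycline in the β line, where 0.0113% of all probes passed. Of the 6, 1 had an unadjusted p under 0.05 by limma, a share similar to the 7010 of all 44321 probes tested. For doxycycline in the δ line none of the 6 had an unadjusted p under 0.05, against 5411 of all probes. There 0 of 6 passed against 0.0135% of all probes. These shares of all probes rest on single arrays: without replicate 2 of the untreated δ line, 3306 probes passed for doxycycline in the δ line in place of 6. For the difference of the effects 0 of 6 passed against 0.00451%, and for the average over both lines 0 of 6 against 0.745%. Only A_55_P2040907 was under 0.05 unadjusted in both, as were 2789 and 8679 of all probes in the 2 comparisons. Treated and untreated arrays did not overlap for 5 of 6 probes in the β line, 4 of them higher with doxycycline. The same held for 45.2% of all probes there. In the δ line 1 of 6 did not overlap, against 54.7% of all probes.

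The second comparison was between the lines, and it was the one in which Gtf2i probes passed. At A_55_P2073467 the group means were 4.51 ± 0.17 and 4.61 ± 0.05 (SD, n = 2) in the β line without and with doxycycline, and 5.17 ± 0.15 and 5.27 ± 0.02 in the δ line. Every δ array was above every β array. In the order of the 4 groups, neighbours within a line did not differ beyond their spread, and the step lay between the treated β and the untreated δ group. Averaged over treatments, the δ line was higher by 0.66 ± 0.09, or 1.58-fold (interval 1.35 to 1.85), with an adjusted p of 0.00647 by limma.

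Probe A_52_P442585 had the same order, with means of -0.27 ± 0.07, -0.13 ± 0.03, 0.33 ± 0.09 and 0.39 ± 0.05 (SD, n = 2) for the untreated and treated β and the untreated and treated δ groups. The δ line was higher by 0.56 ± 0.07, or 1.47-fold (interval 1.30 to 1.67), with an adjusted p of 0.00521 by limma. Both probes passed this averaged comparison in all 18 alternatives run, at 0.60 to 0.72 for A_55_P2073467 and 0.52 to 0.61 for A_52_P442585.

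At a single treatment the same probes passed with less room. Without doxycycline the δ line was higher by 0.67 ± 0.13 at A_55_P2073467 (adjusted p = 0.0362 by limma) and by 0.60 ± 0.10 at A_52_P442585 (adjusted p = 0.0235). With doxycycline the values were 0.65 ± 0.13 (adjusted p = 0.0382) and 0.51 ± 0.10 (adjusted p = 0.0399). Leaving out 1 array left between 0 and 2 of these probes past the threshold in either comparison. Without doxycycline both calls ended when any treated array or replicate 1 of either untreated group was left out, and that of A_52_P442585 also without replicate 2 of the untreated β line. With doxycycline both ended when any treated array was left out. With the second number of the array code as a block, neither probe passed at either treatment (adjusted p from 0.0794 to 0.106), while both passed in the average (0.0278 and 0.0290). Each value of that number belonged to 1 line only. The block therefore left the line differences unchanged and altered only their error, and it cannot adjust them for what the number marks. The differences without doxycycline were present before induction by the label, in cells whose genotype entry names the wild type protein.

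Probe A_55_P2040907, the dimmest of the family, did not follow the others between the lines. Its mean level was above that of 51.0% of the probes kept. Without doxycycline the δ line was higher by 0.54 ± 0.19 (adjusted p = 0.156 by limma), and with doxycycline the treated δ arrays lay below both treated β arrays, at a difference of -0.63 ± 0.19 (adjusted p = 0.101). The average was -0.05 ± 0.13 (adjusted p = 0.839). It turned slightly positive with median scaling, normexp background or subtraction of local medians, none of which passed.

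Across the family, 2 of 6 probes were higher in the δ line at an adjusted p under 0.05 without doxycycline, where 4.19% of all probes were. With doxycycline the count was 2 of 6 against 4.43%, and averaged over treatments 2 of 6 against 9.25% in that direction (15.7% in either direction). All δ arrays exceeded all β arrays for 3 of 6 probes, as they did for 11.6% of all probes. The 3 probes were the 2 of Gtf2i named above and the one of Gtf2ird2.

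To ask whether probes of 1 gene moved apart, each probe was divided by the probe of the same gene with the highest mean signal, and the log2 ratio was tested across 8192 such ratios of 6435 genes. The ratio carries the different affinities of the 2 probes, so only its change between arrays is read. For A_55_P2040907 over A_55_P2073467 it was -6.52 and -7.19 in the untreated β line and -5.63 and -5.67 in the treated β line. In the δ line it was -6.96 and -7.00 without doxycycline and -7.09 and -6.79 with it. The treated β arrays were again above all others.

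The doxycycline change of this ratio in the β line was 1.21 ± 0.23, with an adjusted p of 0.107 by limma. In that comparison 0 ratios passed (0% of the 8192), while 1568 had an unadjusted p under 0.05. The change in the δ line was 0.04 ± 0.23 (adjusted p = 0.936), and the difference between the lines' effects was -1.16 ± 0.33 (adjusted p = 0.559). Between the treated lines the ratio was lower in the δ line by -1.29 ± 0.23 on the log2 scale (adjusted p = 0.0735), a comparison that 1.29% of the ratios passed. It passed in 6 of 17 alternatives, with values from -1.44 to -1.10, among them the fits without either untreated β array. The ratio of A_52_P442585 to A_55_P2073467 differed between the lines by -0.10 ± 0.10 (adjusted p = 0.642), where 3.7% of the ratios passed. The 95% intervals of the 2 probes' own line differences, 0.43 to 0.88 and 0.38 to 0.74, overlapped for most of their length.

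Gtf2ird1 encodes the relative that binds GGATTA, and its promoter carries the 4 matches printed above. Probe A_55_P1986486 read 2.47 and 2.67 in the untreated β line and 2.68 and 2.79 in the treated β line. It read 2.89 and 2.74 in the untreated δ line and 3.03 and 2.97 in the treated δ line. The treated arrays were above the untreated arrays of their line in both lines, with gaps smaller than the spread of the untreated pair. The doxycycline difference was 0.16 ± 0.12 in the β line (adjusted p = 0.587 by limma), and the δ line gave 0.18 ± 0.12 (adjusted p = 0.516). Their average was 0.17 ± 0.09, with an interval from -0.04 to 0.38 and an adjusted p of 0.330. The δ line was higher by 0.26 ± 0.09 averaged over treatments (interval 0.05 to 0.46, adjusted p = 0.0986).

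The other Gtf2ird1 probe, A_55_P2103880, varied little over the study. It read 1.55 and 1.54 in the untreated β line, 1.58 and 1.67 in the treated β line, 1.80 and 1.61 in the untreated δ line and 1.64 and 1.64 in the treated δ line. The arrays of the 2 lines overlapped with doxycycline, and without it both δ arrays were above both β arrays. Its doxycycline differences were 0.08 ± 0.11 in the β line and -0.07 ± 0.11 in the δ line (adjusted p = 0.799 and 0.804 by limma). The difference between the lines was 0.09 ± 0.08, with an interval from -0.10 to 0.28 and an adjusted p of 0.481. It was -0.0045 once local medians were subtracted.

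The 2 Gtf2ird1 probes are annotated to the same transcript, and their ratio, A_55_P2103880 over A_55_P1986486, was -0.92 and -1.12 in the untreated β line and -1.09 and -1.12 in the treated β line. The δ line gave -1.09 and -1.13 without doxycycline and -1.39 and -1.33 with it. Both treated δ arrays had the lowest ratios of the 8. The change with doxycycline in the δ line was -0.25 ± 0.11 (adjusted p = 0.339 by limma), and the line difference averaged over treatments was -0.17 ± 0.08 (adjusted p = 0.334). Neither passed.

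Gtf2ird2, the member with the transposon-derived domain, was measured by the single probe A_52_P206526. It read -0.49 and -0.45 in the untreated β line, -0.53 and -0.79 in the treated β line, -0.37 and -0.15 in the untreated δ line and -0.29 and -0.30 in the treated δ line. The treated β arrays were the 2 lowest, and all 4 δ arrays were above all 4 β arrays. The doxycycline differences were -0.19 ± 0.13 in the β line (adjusted p = 0.560 by limma) and -0.03 ± 0.13 in the δ line (adjusted p = 0.928). The δ line was higher by 0.29 ± 0.09 averaged over treatments, or 1.22-fold (interval 1.04 to 1.43), with an adjusted p of 0.0972. This passed with normexp background (0.40, adjusted p = 0.0101) and with local medians subtracted (0.40, adjusted p = 0.0126), and in none of the other 16 alternatives.

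Genes whose pattern over the 8 arrays was most like each member were ranked by the root mean square difference of log2 levels, each centred on its own mean, over 15117 genes at their probe of highest signal. This is a description of these arrays, and arrays share slide, line and treatment. Nearest to Gtf2i (A_55_P2073467) were Usp22, a deubiquitinase of the SAGA coactivator, at 0.043, Nudt16 at 0.048, Thtpa, the thiamine triphosphatase, at 0.053, Myh10, a nonmuscle myosin heavy chain, at 0.055 and Gk5 at 0.056. Their differences between the lines ran from 0.59 for Usp22 to 0.72 for Thtpa, beside 0.66 for Gtf2i. The ranking over the same arrays selected for that likeness.

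Nearest to Gtf2ird1 (A_55_P1986486) were Atraid at 0.026, Kansl1, a subunit of the NSL histone acetyltransferase complex, at 0.027, Slc25a51, the mitochondrial NAD carrier, at 0.030, Rgs12 at 0.035 and Slc25a4, an ADP/ATP carrier, at 0.038. The Kansl1 probe lay in a region of local departure on an array. Nearest to Gtf2ird2 were Mrps35, a mitochondrial ribosomal protein, at 0.033, Zfp386 at 0.047, Rpap2, a phosphatase of RNA polymerase II, at 0.048, Mllt6 at 0.051 and Bcor, a corepressor of BCL6, at 0.054. The low values on the treated β replicate 2 were shared by all 5 of these genes, which the ranking over the same arrays selected for.

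The genes around TFII-I were read from 3 lists, each gene at its probe of highest signal. The lists were chosen with earlier results of these data known, so their counts and medians only describe the listed genes. The shares and medians of all probes printed beside them cover every kept probe, not 1 per gene. The first held 25 binding partners and signalling regulators of TFII-I, and 24 of them were measured. None passed for doxycycline in either line, for the difference or for the average. Between the lines 5 were higher and 2 lower in the δ line, against 15.7% of all probes in either direction, and the list's median difference was 0.15, beside -0.04 over all probes. Myc, whose product binds TFII-I at initiator elements, read 0.13 and 0.05 in the untreated β line and -0.66 and -0.71 in the untreated δ line. With doxycycline it read -0.31 and -0.30 in the β line and -1.02 and -1.10 in the δ line. All 4 δ arrays were below all 4 β arrays, with a difference of -0.77 ± 0.07 (adjusted p = 0.00129 by limma).

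Prkg1, the cGMP-dependent kinase that phosphorylates TFII-I, was higher in the δ line by 0.69 ± 0.08 (adjusted p = 0.00318 by limma). Zmym3, a zinc finger protein found with TFII-I in corepressor complexes, was higher by 0.64 ± 0.09 (adjusted p = 0.00781). Averaged over lines, the doxycycline difference was -0.50 ± 0.07 for Parp1 (adjusted p = 0.0538) and -0.39 ± 0.07 for Myc (adjusted p = 0.0711), neither of which passed. Parp1 passed in 7 of 18 alternatives and Myc in 4 of 18, both among them without replicate 2 of the untreated δ line, where 3957 probes passed. Srf, the serum response factor, gave 0.61 ± 0.32 (adjusted p = 0.357), and its probe lay in a region of local departure on replicate 1 of the untreated δ line, where it read -0.23 against 1.30 to 1.63 on the other arrays. Without that array the Srf difference was 0.22.

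The second list held 16 genes described as bound or regulated by the family, all measured. Between the lines 3 were higher and 2 lower in the δ line, against 15.7% of all probes in either direction, and the median difference was 0.06, beside -0.04 over all probes. Kdr, the VEGF receptor whose promoter TFII-I binds, was higher in the δ line by 1.70 ± 0.08 (adjusted p = 8.05e-05 by limma). Nsd1, a histone H3 methyltransferase, was higher by 0.74 ± 0.06 (adjusted p = 0.00109). Bmpr1b, a BMP receptor, was lower by -0.61 ± 0.15 on the log2 scale (adjusted p = 0.0402), with overlapping lines and a probe in a region of local departure, and it passed in 6 of 17 alternatives, among the fits with 1 array left out only those without replicate 1 of the untreated β line or replicate 2 of the untreated δ line.

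In the same list, chosen with earlier results of these data known, 2 genes rose and 0 fell with doxycycline averaged over lines. Of all probes 0.745% (330) passed there. That number was between 0 and 5536 in the alternatives, with 3957 when replicate 2 of the untreated δ line was left out and 1 without replicate 2 of either treated group. Fos, an immediate early gene whose promoter TFII-I binds, read -0.66 and -0.62 in the untreated β line and 0.32 and 0.33 in the treated β line. It read -0.66 and -0.60 in the untreated δ line and 0.08 and 0.45 in the treated δ line. All treated arrays were above all untreated arrays, and the rise was 0.93 ± 0.10 (adjusted p = 0.0264 by limma). Kdr rose from -0.20 and -0.09 to 0.72 and 0.83 in the β line and from 1.76 and 1.67 to 2.35 and 2.27 in the δ line, by 0.76 ± 0.08 on average (adjusted p = 0.0236). These calls held in 11 of 18 alternatives for Fos and in 10 of 18 for Kdr. Each ended when any treated array or either untreated β array was left out. In a single line 0 genes of the list passed for doxycycline. Bmpr1b gave 1.02 ± 0.15 (adjusted p = 0.0513) and did not pass.

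The third list held 26 general transcription factors, the machinery that TFII-I was first grouped with by name. Between the lines 1 was higher and 1 lower in the δ line, against 15.7% of all probes in either direction, and the median difference was 0.10. Taf7, a TFIID subunit, was higher by 0.52 ± 0.11 (adjusted p = 0.0246 by limma), and Gtf2h5, the smallest subunit of TFIIH, was lower by -0.30 ± 0.07 on the log2 scale (adjusted p = 0.0423). Taf7 passed in 13 of 18 alternatives and Gtf2h5 in 5 of 18, and the Gtf2h5 call ended when any 1 of the 8 arrays was left out. The Taf7 call ended without either treated δ array, and without replicate 1 of each of the other 3 groups. Cdk7, the TFIIH kinase, gave 0.30 ± 0.11 (adjusted p = 0.115). With doxycycline none of the 26 passed in any comparison, and the differences averaged over lines were -0.50 ± 0.12 for Gtf2h3, -0.32 ± 0.11 for Cdk7 and -0.30 ± 0.11 for Gtf2h2 (adjusted p between 0.105 and 0.211).

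Summed markers of epithelial type also differed between the lines, in the opposite direction. They were lower in the δ line, where the Gtf2i probes that passed were higher. The summed level of 8 medullary thymic epithelial markers, as intensity over the array's 75th percentile, was 30.5 to 38.8 on the β arrays and 4.81 to 5.76 on the δ arrays, and 5 of the 8 were well above background on all arrays, with Cldn3, Ccl21a and Fezf2 not. The sum of 12 cortical markers was 28.7 to 32.5 on the β arrays and 16.9 to 18.0 on the δ arrays. Of these 12, Foxn1, Prss16, Krt8, Krt18, Ccl25, Cxcl12 and Tbata were well above background throughout, while Psmb11, Ly75, Dll4, Enpep and Epcam were not, among them the cortical proteasome subunit Psmb11. Such sums are of linear intensities and weigh the brightest probes most. In the medullary list that was Krt14 (mean log2 level 3.08), with Tnfrsf11a next at 1.17 and Aire at -3.26. In the cortical list Krt8 (2.97) and Krt18 (2.82) were the brightest. The sums therefore do not show that the markers of a list differed alike. The part of such differences between the lines in the Gtf2i result was not tested. In cultures of this kind a change in the share of cells and a change in RNA per cell cannot be told apart.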

How the data were processed

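Agilent mouse expression arrays in 1 colour were scanned and quantified by the authors. The file headers name Feature Extraction 11.5.1.1 and an mm9 annotation, and the submitters' processing notes name version 11.5.11. The deposited values used are the software's processed spot signals, a linear intensity after subtraction of background and spatial detrending, unnormalized between arrays. Multiplicative detrending, recorded as a root mean square, was 0 on 3 of the 4 doxycycline arrays and 0.0671 to 0.126 on the other 5. This step thus went largely with treatment, and its part in the doxycycline differences was not tested. Here log2 intensity was averaged over unflagged spots of a probe and each array's 75th percentile subtracted. Of 56605 probes, 98 without an unflagged spot on some array were left out, and 44321 were kept because both arrays of some group had them well above background. RefSeq accessions (GRCm38.p6) named 32994 probes. The fit, limma 3.58.1 under R 4.3.3 (lmFit, eBayes), gave each group its own mean over all 8 arrays with 4 residual degrees of freedom, and was checked on simulated data. From related lists, up to 3 genes with the largest absolute difference were named per comparison. Members and lists were chosen with earlier results of these data known. Alternatives were median scaling, quantile normalization, normexp (offset 50, on median spot and background signals, as the planned mean signal was not used here), no or stricter filters, an intensity trend, only the 4 arrays compared, the second number of the array code as a replicate block, spot medians, probes without or corrected for deviant tiles, the regions of local departure (8 by 8 spots over 0.3 from the mean array; 129 of 1008 tiles), and leaving out each array. Correction by tile medians, and the block for line differences, were chosen after seeing the data. Replicate numbers follow accession order and pair nothing.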

Additional observations from a re-analysis of the deposited data

How the results depend on the processing

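Averaged over treatments, the line differences of A_55_P2073467, A_52_P442585, Myc, Prkg1, Zmym3, Kdr and Nsd1 passed in all 18 alternatives; the other calls did not. The number of family probes passed for doxycycline averaged over lines rose from 0 to 1 (A_55_P2040907) without a filter and with the all-array filter. It did so too with an intensity trend, without deviant tiles and with tile medians subtracted. All-probe calls rose as well, from 330 of 44321 to 5536 of 56507 without a filter and 832 of 37363 with the all-array filter. They were 823 of 44321 with the trend, 784 of 38746 without deviant tiles and 870 of 44321 with tile medians subtracted. Between the untreated lines the family count fell from 2 to 1 with median scaling or no filter and to 0 with only the 4 arrays compared. All-probe calls there fell from 3184 to 2438, 2296 (of 56507) and 604. Between the treated lines the family count fell to 1 with median scaling and to 0 with no filter. All-probe calls there were 2500 and 2461 (of 56507), against 3270. The family count rose to 3 with normexp and with tile medians subtracted, where 3275 and 4515 of all probes passed. These settings added Gtf2ird2 (0.44, adjusted p = 0.0453, and 0.52, adjusted p = 0.0279 by limma). Leaving out 1 array gave 0 to 2 in both. Averaged over treatments the family count rose to 4 with normexp, which added Gtf2ird2 and A_55_P1986486, while 7093 of all probes passed in place of 6945. The cause of these shifts was not tested.

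Only differences that had not passed turned sign. With tile medians subtracted, doxycycline in the δ line gave 0.13 for Gtf2ird2, 0.048 for A_55_P2103880 and -0.055 for the ratio of A_55_P2040907 to A_55_P2073467; the difference of effects gave 0.15 for A_55_P2073467 and 0.071 for A_52_P442585; and the line difference gave -0.0045 (averaged) and -0.057 (with doxycycline) for A_55_P2103880 and 0.0031 for A_55_P2040907. Median scaling gave 0.0054 for the averaged line difference of A_55_P2040907 and 0.044 for the difference of effects at A_55_P2073467. Quantile normalization gave -0.043 for A_55_P2103880 between treated lines and -0.036 for the difference of effects at A_55_P1986486, and normexp gave -0.025 and -0.10 for the same, and 0.0024 for the averaged line difference of A_55_P2040907.

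Leaving out 1 array, doxycycline in the δ line ranged from -0.0059 to 0.12 for A_52_P442585, -0.012 to 0.20 for A_55_P2073467, -0.16 to 0.029 for A_55_P2103880, -0.14 to 0.074 for Gtf2ird2 and -0.11 to 0.19 for the A_55_P2040907 ratio. For A_55_P2073467 it ranged from -0.015 to 0.23 in the β line and from -0.13 to 0.11 for the difference of effects, which for A_55_P1986486 was -0.074 to 0.12. Line differences ranged from -0.15 to 0.059 for A_55_P2040907 (averaged) and from -0.025 to 0.057 for A_55_P2103880 (with doxycycline).

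The block was the second number of the array code, shared by 1 treated and 1 untreated array of a line, whose deviations correlated at 0.0911 for β and 0.0679 for δ. With this replicate block, the doxycycline difference of A_55_P2040907 in the β line had an adjusted p of 0.262, the count of family probes passed for doxycycline stayed at 0, and Fos and Kdr had an adjusted p of 0.166. It could not adjust the differences between the lines for that number, and it left their size unchanged. Between the lines the block left 0 family probes past the threshold at either treatment and 2 in the average. Of all probes 1325, 967 and 4204 passed without doxycycline, with it and averaged, against 3184, 3270 and 6945 without the block. The 4-array fit was not run for averages and differences of effects.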
